A study of Mus musculus with 24 samples.

Results

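Mbp, Mog, Mag, Mobp, Cnp, Mal, Cldn11, Bcas1 and Enpp6 were followed from dividing precursors to mature oligodendrocytes, and in the other cells, in single-cell data from mouse motor cortex and dorsal striatum. The 9 genes were taken by symbol from the 54235 features of the count matrices. Cells of the motor cortex came from Fos-CreER::Ai9 mice and those of the dorsal striatum from Arc-CreER::Ai9 mice. In both lines an activity-dependent promoter (Fos or Arc) drives a drug-inducible Cre, and Ai9 is a tdTomato reporter. Every animal received 4-hydroxytamoxifen, the controls included, and tissue was taken 3 days after labelling. The early group had trained on a forelimb reaching task for 2 days, the late group for 8 days, and controls were not trained. Each group of a region held 2 pools of 2 mice. Both hemispheres of a pool gave a library each, named contralateral and ipsilateral in trained pools and left and right in controls. The right library of dorsal striatum control 1 was not analysed here, which left 23 libraries from 12 pools. Ages were not given in the sources used here. Region and driver line cannot be told apart, because each region came from its own line.

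Oligodendrocytes wrap axons in compact myelin. They arise from dividing precursors that carry the PDGF receptor Pdgfra, pass through a short-lived committed stage marked by Bmp4 and Gpr17, and then switch on the genes of the sheath. Bcas1 and Enpp6, a choline phosphodiesterase, are known as markers of cells that are starting to myelinate. Mbp compacts the cytoplasmic faces of the membrane, Mobp is a further basic protein of the sheath, and Cnp is an enzyme that keeps cytoplasmic channels open in it. Mal is a membrane proteolipid of late myelin, and Cldn11 forms the tight junctions of the sheath. Mag sits on the membrane facing the axon and Mog on the outermost surface. Mbp and Mobp transcripts are known to be carried out into the myelin processes, and the Mbp locus also yields golli transcripts, known in neurons and lymphocytes, which a count per gene does not separate.

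RefSeq promoter entries of build GRCm38.p6 were matched for 7 of the 9, all but Mbp and Bcas1, and trimmed to the bases before the annotated RNA start. The 4 promoters below are shown because their genes stand for the steps that the levels separate: Enpp6 for the committed stage, Mag and Mog for the rise between committed and mature cells, and Mobp for the mature stage. They cover chr17:37023399-37023648 (Mog), chr7:30914874-30915113 (Mag), chr9:120149492-120149706 (Mobp) and chr8:46986637-46986886 (Enpp6). Each is written 5′ to 3′ on the gene's own strand. Capitals mark matches to 2 motifs of the kind bound by Myrf (CTGGCAC and CTGGTAC) and 2 of the kind bound by Sox factors (ACAAAG and ACAATG), on either strand.
Enpp6: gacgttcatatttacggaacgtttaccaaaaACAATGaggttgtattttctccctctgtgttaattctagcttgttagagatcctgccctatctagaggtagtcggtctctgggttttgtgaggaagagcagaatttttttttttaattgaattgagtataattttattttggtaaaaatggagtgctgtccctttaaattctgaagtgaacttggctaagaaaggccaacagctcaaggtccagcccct
Mag: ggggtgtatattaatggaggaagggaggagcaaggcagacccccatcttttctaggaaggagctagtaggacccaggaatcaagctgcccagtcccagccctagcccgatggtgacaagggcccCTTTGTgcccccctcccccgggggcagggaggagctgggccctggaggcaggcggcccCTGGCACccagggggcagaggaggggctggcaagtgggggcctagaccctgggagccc
Mog: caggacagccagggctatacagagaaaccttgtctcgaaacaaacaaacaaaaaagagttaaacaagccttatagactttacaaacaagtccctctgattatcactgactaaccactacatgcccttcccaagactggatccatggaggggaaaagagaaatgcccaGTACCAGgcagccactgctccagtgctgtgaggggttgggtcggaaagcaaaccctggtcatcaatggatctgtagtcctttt
Mobp: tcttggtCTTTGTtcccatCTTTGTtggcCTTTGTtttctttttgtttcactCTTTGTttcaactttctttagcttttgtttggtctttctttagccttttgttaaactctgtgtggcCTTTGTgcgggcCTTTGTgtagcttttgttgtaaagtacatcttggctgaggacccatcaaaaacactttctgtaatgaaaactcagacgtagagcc
The Mag promoter printed, 1 of 3 RefSeq entries of this gene, held CTGGCAC (another entry held none of the motifs), and the Mog promoter held CTGGTAC, on the opposite strand, 83 bases before the RNA start. Cnp, not printed, held CTGGCAC and ACAAAG. Over all 32851 RefSeq promoters of the table, at their full length, 5.93% held CTGGCAC or CTGGTAC and 25.2% held ACAAAG or ACAATG. The Mobp promoter held 6 copies of ACAAAG, all on the opposite strand, a number reached by 1 of the 32851 promoters. Enpp6 held a single ACAATG, 219 bases before its start. Neither kind of motif was in the windows of Mal and Cldn11. These matches describe letters in the windows and no binding was measured.

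In GRCm38 with the GENCODE M21 annotation, Mbp lies on chromosome 18 at 82475146 to 82585637 (+ strand), Mog on 17 at 37010743 to 37023398 (-), Mag on 7 at 30899176 to 30914873 (-) and Mobp on 9 at 120149707 to 120181484 (+). Cnp lies on 11 at 100574904 to 100591729 (+), Mal on 2 at 127633226 to 127656695 (-) and Cldn11 on 3 at 31149920 to 31164324 (+). Bcas1 lies on 2 at 170346991 to 170427845 (-) and Enpp6 on 8 at 46986887 to 47096762 (+).

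Libraries held between 5260446 and 30470621 UMIs (unique molecules counted once each), and 99627 cells were used. Clusters were built without the 9 genes and named from other markers, which gave 8235 precursor-like cells, 1226 committed precursor-like cells and 406 mature oligodendrocyte-like cells, with median depths of 2041, 3094 and 3127 UMIs. Most markers were highest in the class they name, but not all: Tnr, a precursor marker, stood at 1369 and 1285 CPM in precursors of motor cortex and striatum and 2275 and 2243 in committed cells. Pdgfra stood at 1505 CPM (UMIs scaled to 1000000 UMIs of the class) in precursors of the motor cortex and 1515 in the striatum, Bmp4 at 677 and 648 CPM in committed cells, and Opalin, a mature marker, at 1987 and 1037 CPM in mature cells. A further 352 cells in 5 mixed sub-clusters of the lineage stayed unnamed and held 13.7% of the lineage's UMIs of the 9 genes. Mature-like cells were few and unevenly spread: 122 came from motor cortex late 1 and 72 from early 1, against 3 to 12 in each of the other motor cortex pools and 16 to 41 in each striatal pool. Pools also fell into barcode classes A and B by the barcodes they shared, read as the 2 kit versions that the labels name. Replicate 1 of the control and late groups in each region was class A, and the other 8 pools, among them every early pool, were class B. Over the 276 pairs of all 24 barcode lists, that of the library without a matrix included, 3053 barcodes recurred, at most 1.48% of the smaller list. The left library of motor cortex control 1 stood apart with 469 passing cells.

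By the clusters, Bcas1 and Enpp6 were highest in committed cells, and the other 7 genes in mature cells. Bcas1 was already present in precursors, at 309 ± 105 CPM (SD, n = 12 pools, lowest 167, median 304, highest 469). It stood at 1905 ± 613 in committed cells (n = 12 pools, lowest 810, median 2192, highest 2620) and at 302 ± 175 in mature cells (n = 7 pools with at least 20 cells, lowest 169, median 251, highest 678). Precursor and mature pools overlapped and all committed pools lay above both. Enpp6 was near 0 in precursors, at 0.814 ± 1.29 CPM (SD, n = 12 pools, lowest 0, median 0.28, highest 4.50). Committed pools held 1330 ± 278 CPM of Enpp6 (n = 12, lowest 754, median 1381, highest 1606) and mature pools 220 ± 110 (n = 7, lowest 61.4, median 186, highest 338). Among pools with at least 20 cells, none of one class reached the Enpp6 level of a pool of another, so that this phosphodiesterase set the committed stage apart from both sides. This held with the classes as clustered. Under gates on UMIs of Pdgfra, of Bmp4 or Enpp6, and of Mog, Enpp6 stood at 715 CPM in committed and 1097 in mature cells. Enpp6 is itself a gate gene, so its gated levels were partly set by the gate. Bcas1 stood at 1103 CPM in gated mature cells. Over the 5 alternative settings of cells and classes, precursor Enpp6 reached 8.08 CPM. No test was made between classes, since cells were assigned to them by expression.

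By the clusters, Cnp, Mbp, Cldn11, Mag and Mog were higher at each step. With gates on single genes their committed levels were lower (Mbp 1861, Cnp 1856, Cldn11 597, Mag 170.2 CPM, and Mog 0 by construction), and with unnamed sub-clusters kept committed Mag stood at 931.7. Over the 5 alternative settings of cells and classes, precursor levels reached 84.0 CPM of Mbp, 17.5 of Cldn11, 8.23 of Mag and 2.10 of Mog. Mature Cldn11 fell to as low as 3977 CPM and mature Mog to 1543. Cnp started highest of these, at 195 ± 59.9 CPM in precursors (SD, n = 12 pools, lowest 123, median 192, highest 315). It stood at 3371 ± 912 in committed cells (n = 12, lowest 2309, median 3197, highest 4726) and 6923 ± 1909 in mature cells (n = 7, lowest 4244, median 6635, highest 10096). The committed and mature ranges of this channel-keeping enzyme overlapped, and precursors lay below both. Mbp went from 44.8 ± 31.0 CPM in precursors (n = 12, lowest 18.6, median 34.6, highest 124) to 4285 ± 2096 in committed cells (n = 12, lowest 1234, median 4023, highest 8498). In mature cells Mbp stood at 11644 ± 5026 CPM (n = 7, lowest 5101, median 13434, highest 17574), again overlapping the committed pools, though only across barcode classes. Cldn11, the junction gene, stood at 2.54 ± 5.07, 1264 ± 687 and 6010 ± 1822 CPM in the 3 classes, and its committed pools (387 to 2476) lay below its mature pools (3482 to 8654). Mag was at 1.58 ± 1.58 CPM in precursors, 520 ± 251 in committed cells and 5232 ± 3001 in mature cells. Mog was at 0.273 ± 0.435, 196 ± 73.7 and 2600 ± 445 CPM, the smallest spread in mature pools relative to its mean among the 9. Committed and mature pools did not overlap for either surface gene: Mag stood at 172 to 1045 against 2417 to 9544 CPM, and Mog at 53.5 to 345 against 2122 to 3195.

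Mobp and Mal stayed low until the mature class. Mobp stood at 5.96 ± 6.81 CPM in precursors (SD, n = 12 pools, lowest 0, median 3.44, highest 19.6) and 32.0 ± 40.7 in committed cells (n = 12, lowest 0, median 21.0, highest 150), with overlapping ranges. With unnamed sub-clusters kept by their markers, committed Mobp stood at 270.1 CPM. Its mature pools held 7131 ± 2040 CPM (n = 7, lowest 3766, median 7136, highest 9688). Mal stood at 0.417 ± 0.496 CPM in precursors, 10.7 ± 26.3 in committed cells (n = 12, lowest 0, median 3.33, highest 93.5) and 5346 ± 2365 in mature cells (n = 7, lowest 2909, median 5624, highest 9162). Over the 5 alternative settings, mature Mobp fell to as low as 3460 CPM and mature Mal to 2483, and precursor Mal reached 6.86. Over all pools clustered, Mobp and Mal separated mature from committed pools with no overlap, while Mbp, which codes for another basic sheath protein, did not. The Mbp overlap arose only across barcode classes. Committed pools held 5423 to 8498 CPM and mature pools 14410 to 17574 in class A, against 1234 to 4524 and 5101 to 13434 in class B. Per cell, Mbp was found more often than Mobp or Mal: in committed cells of the motor cortex, 65.1% had a UMI of Mbp, 3.68% one of Mobp and 0.882% one of Mal. After each cell was thinned to 1000 UMIs, the shares with Mbp and Mobp were 50.6% and 1.32%. Microglia, which lack a myelin programme, had a UMI of Mbp in 7.15% of motor cortex cells (4.62% thinned, median depth 1823 UMIs). In the striatum, 76.9% of committed cells had a UMI of Mbp (64.7% thinned) and 5.13% one of Mobp (2.38% thinned).

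The make-up of the 9 genes' UMIs, counted at transcript 3' ends and so not scaled by length, shifted along the lineage in the same direction in both regions. In motor cortex precursors, Bcas1 took 52.6% of them, Cnp 34.6% and Mbp 10.3%, and in striatal precursors 56.5%, 34.8% and 6.74%. Mbp led in committed cells, with 31.5% in motor cortex and 31.2% in striatum, ahead of Cnp with 27.6% and 26.4%. Enpp6 took 10.1% and 10.6% of the UMIs there. The lead of Mbp over Cnp was not shared by the barcode classes. Committed pools averaged 6667 CPM of Mbp and 3563 of Cnp in class A (n = 4), and 3094 and 3275 in class B (n = 8). In mature cells Mbp took 26.7% and 21.8%, and Mobp, Mag, Cldn11 and Mal each took between 10.1% and 15.6%. Within the lineage the members of the mature sheath thus came to share the UMIs more evenly than the early members did.

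Sub-clusters split these steps further, as a description of the cells clustered. Their make-up by pool and barcode class is not given here. Bcas1 and Mbp in committed cells and Mag in mature cells also differed between barcode classes. Among the 4 committed sub-clusters, Bcas1 was highest where Mbp was lowest: sub-cluster 5 (487 cells) held 2524 CPM of Bcas1 and 448 of Mbp, and sub-cluster 8 (256 cells) held 1594 of Bcas1 and 8252 of Mbp. Sub-cluster 8 also held the most Enpp6 (2409 CPM), Mag (1463) and Mog (417) of the 4, with Mobp still at 50.5 and Mal at 16.1. Unnamed sub-cluster 15 (89 cells, markers of both classes) held 13390 CPM of Mbp, 4314 of Mag and 5956 of Cldn11, all at mature levels, beside 1913 of Enpp6. Its Mobp (1844 CPM) lay between the classes and its Mal (27.6 CPM) was low. In these cells Mag and Cldn11 were therefore high while Mal was not. The 3 mature sub-clusters differed most in Mag, Bcas1 and Mal. Sub-cluster 16 (76 cells, median depth 10888.5 UMIs) held 10410 CPM of Mag and 2706 of Mal, and sub-cluster 10 (197 cells) held 2202 of Mag and 8875 of Mal. Median depth was 2431 UMIs in sub-cluster 10 and 3341 in 13. Levels are UMI sums, so the deep cells of sub-cluster 16 weigh more in the mature levels than their number. Sub-cluster 16 also met 4 committed markers beside 6 mature ones. Bcas1 stood at 203 CPM in sub-cluster 16, 681 in 10 and 343 in 13. Among precursors, the 2 cycling sub-clusters had the lowest Bcas1, at 134 and 164 CPM, and a sub-cluster of 51 cells, all from motor cortex, had the highest, at 1219.

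**Figure D1:**
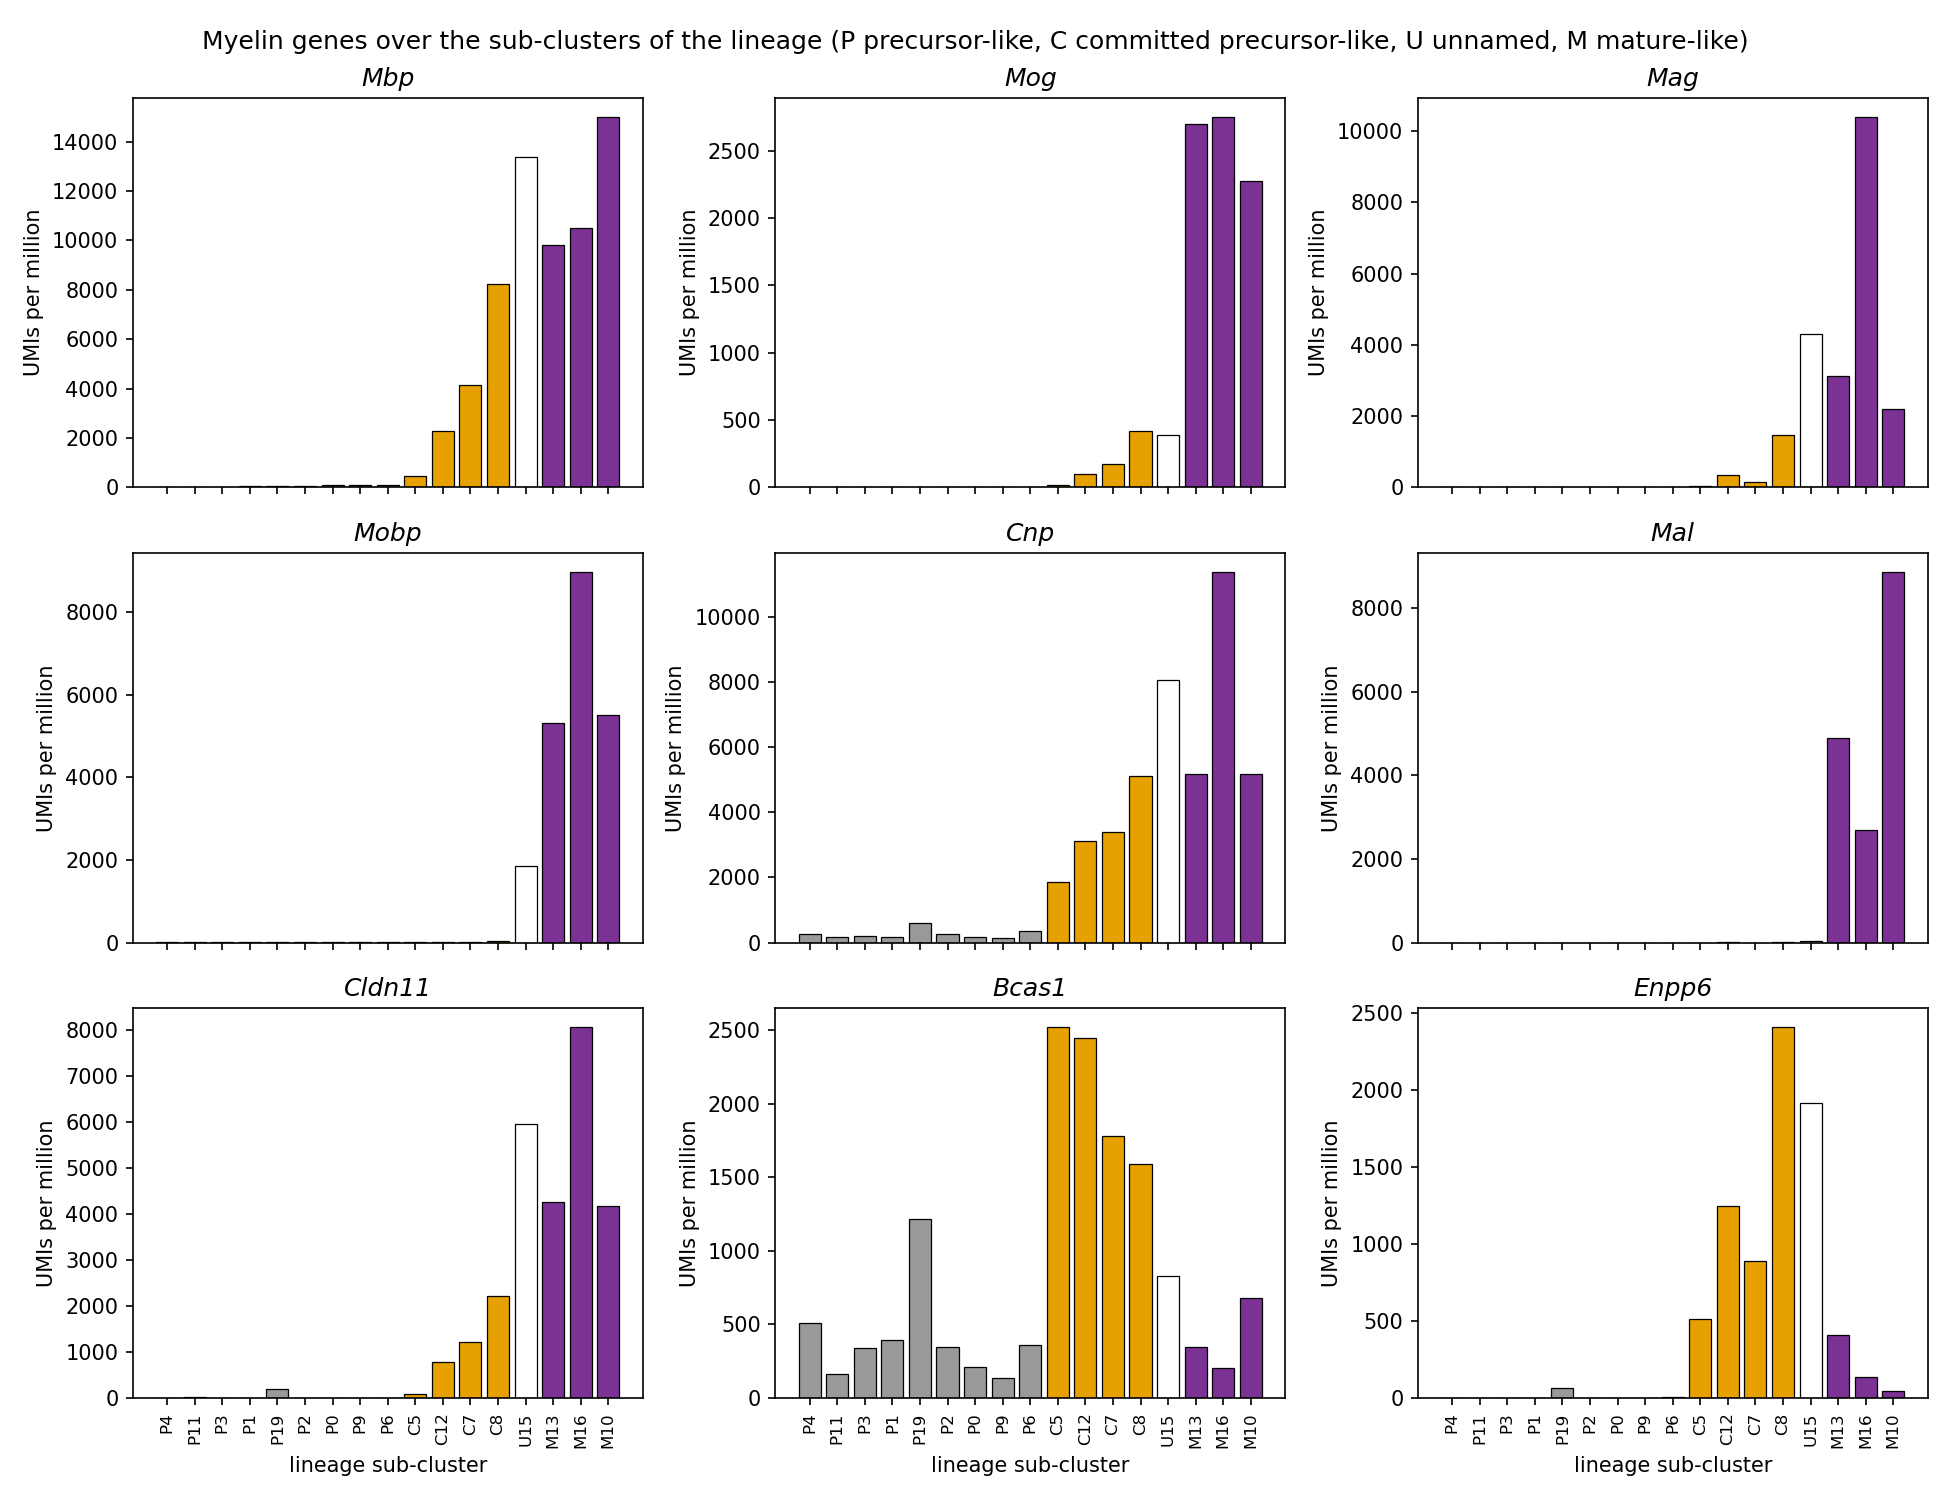
Each panel shows the level of 1 gene (CPM, linear axis) in every precursor-like (P), committed (C) and mature-like (M) sub-cluster of the lineage and in unnamed sub-cluster 15 (U), ordered within a class by Mbp. Bcas1 and Enpp6 peak in committed bars, Mobp and Mal are tall only in mature bars, and U15 is high for Mbp (13390) but low for Mal (27.6).

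Spread between pools within a class followed the barcode class for several genes. In committed cells, Bcas1 stood at 810 to 1344 CPM in the 4 pools of class A and 2047 to 2620 in the 8 of class B. The direction was opposite for Mbp there, with 5423 to 8498 CPM in class A against 1234 to 4524 in class B, and for Cldn11, with 1251 to 2476 against 387 to 1174. In mature cells (3 pools of class A, 4 of class B) Mag was lower in class A, at 2417 to 2827 CPM against 3759 to 9544. Mbp, Mobp and Cldn11 were higher there: Mbp stood at 14410 to 17574 against 5101 to 13434 CPM, Mobp at 8349 to 9688 against 3766 to 7136, and Cldn11 at 6469 to 8654 against 3482 to 5443. The ranges of A and B thus did not overlap in 7 of the 27 pairs of gene and class. For this reason the barcode class was a term in the models of region and stage. The share of such gaps over all genes is not given here, so the count cannot be read as particular to the members. Class A held no early pool, so barcode class and stage are partly mixed.

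**Figure D2:**
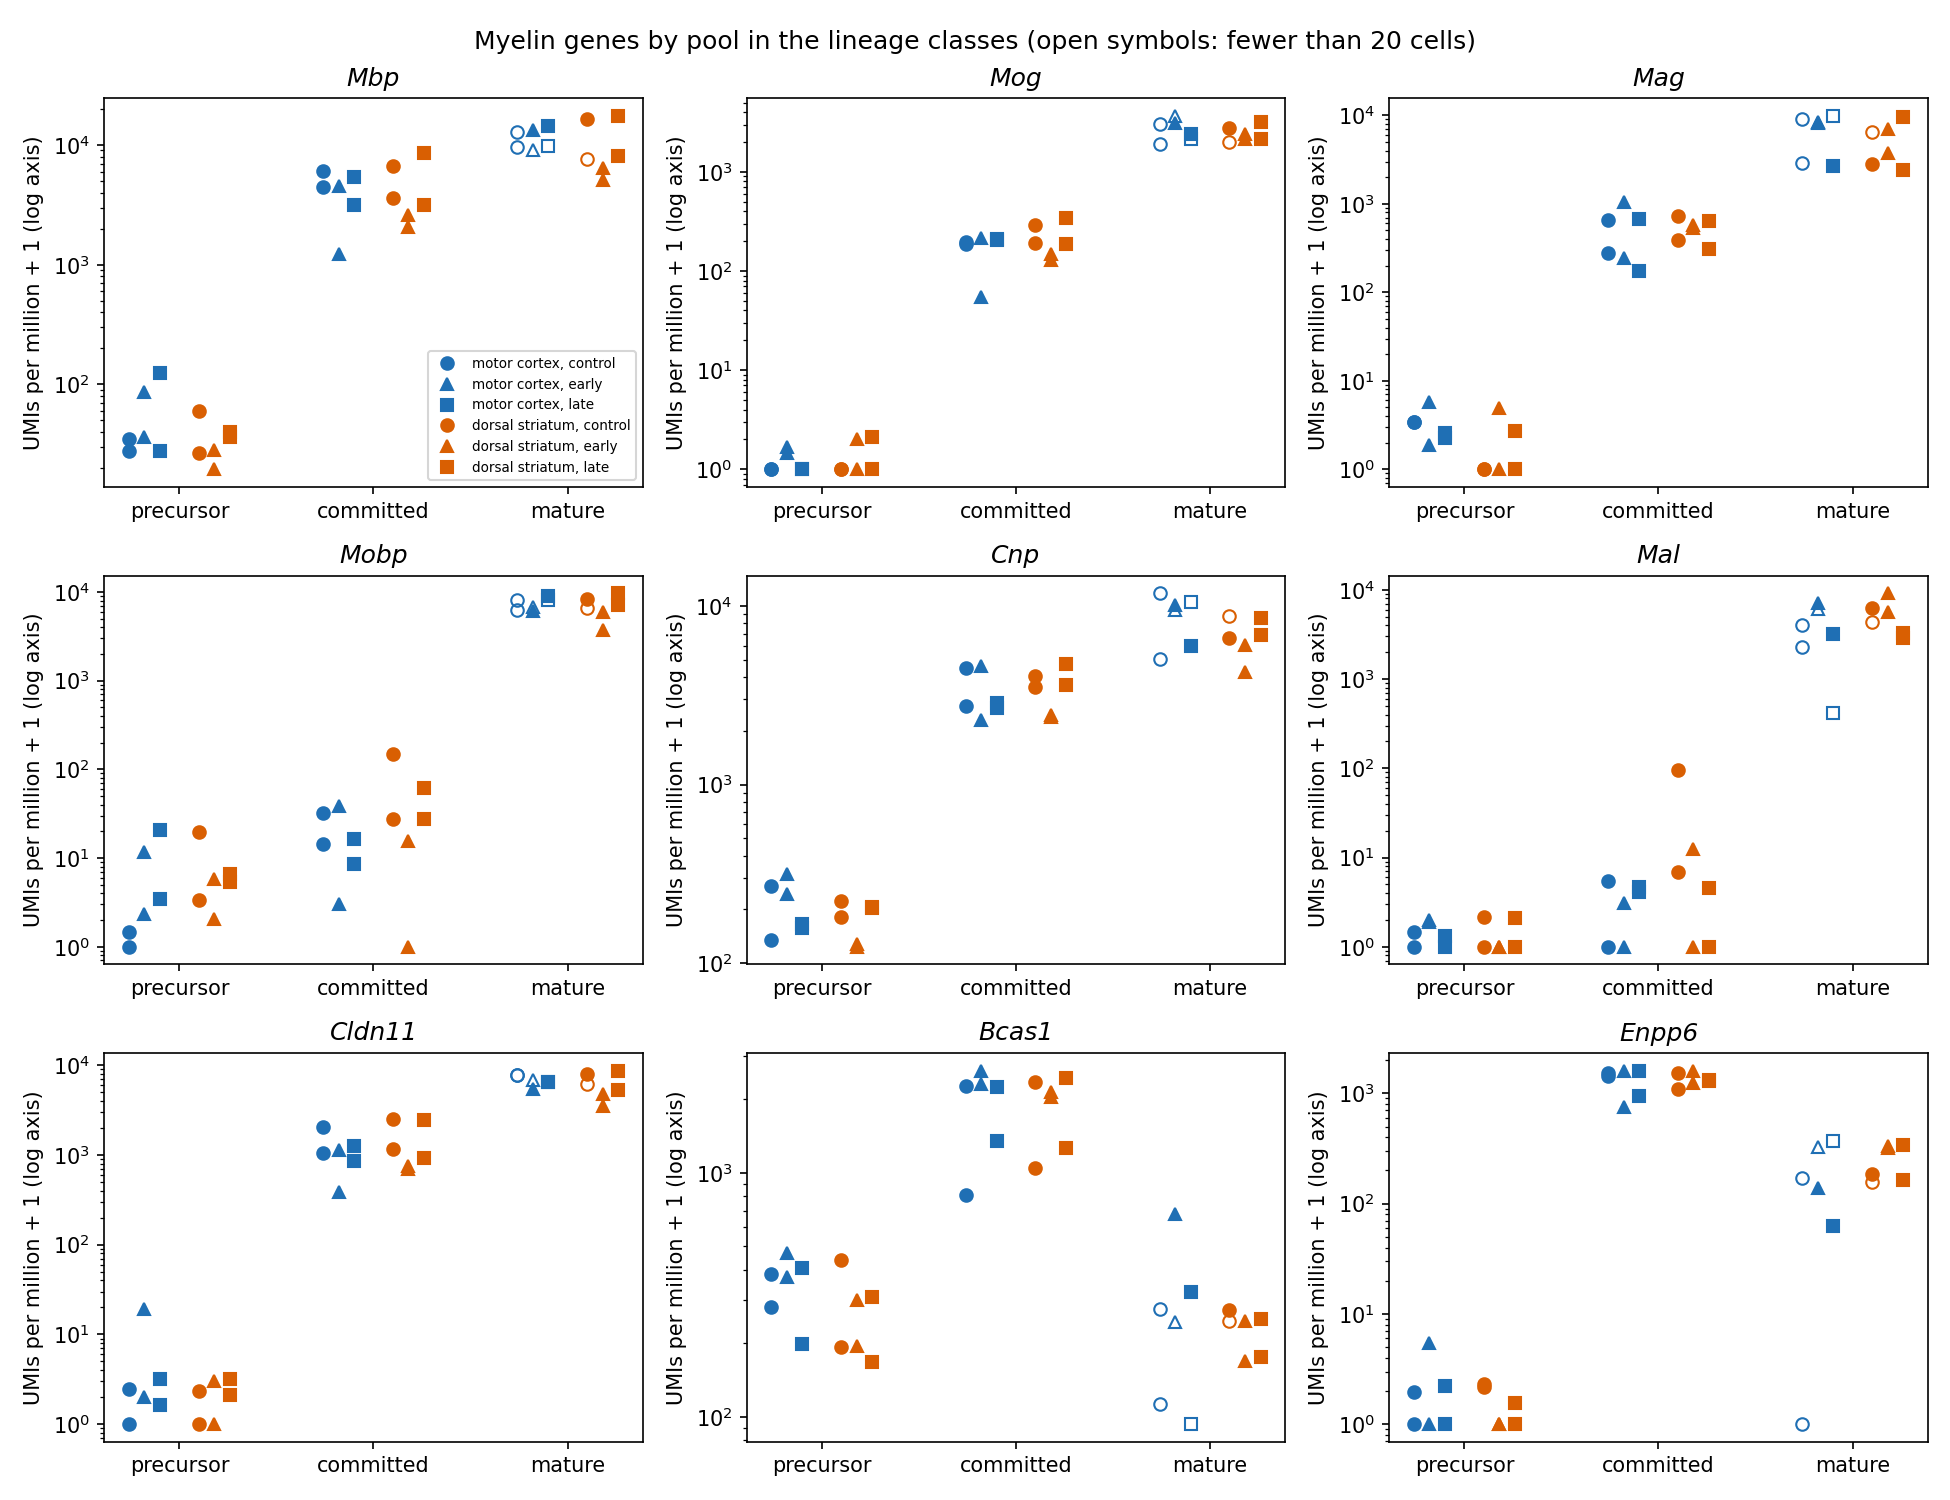
Each panel shows 1 gene, with a point for each pool in the 3 lineage classes (CPM plus 1, log axis; blue motor cortex, orange dorsal striatum; circle control, triangle early, square late; open where the pool had fewer than 20 cells of the class). The filled points of the regions overlap in each class except for Bcas1 (motor cortex 323 and 678, striatum 169 to 273) and Enpp6 (61.4 and 138, against 164 to 338) in mature cells, while those of the classes do not overlap for Enpp6, Mag, Mog and Cldn11.

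Motor cortex and striatum were compared in each class with edgeR's quasi-likelihood test over pools, adjusted over all genes by the Benjamini-Hochberg method (adjusted p under 0.05), as were all model tests that follow. In precursors none of the 4 members with enough counts was called (76 of 12227 genes, 0.622%, were called), and 2 had an unadjusted p under 0.05, as did 1010 of the 12227 genes. Bcas1 stood at 167, 193, 194, 299, 310 and 440 CPM in the striatal pools and 198, 280, 373, 384, 405 and 469 in those of the motor cortex. Its log2 difference, motor cortex minus striatum, was 0.40 with an edgeR adjusted p of 0.330, and the ranges overlapped. Precursor Mbp differed by 0.70 (edgeR adjusted p 0.453). In committed cells none of the 8 members tested was called (10 of 6705 genes, 0.149%) and none had an unadjusted p under 0.05. DESeq2 called no member in these classes either.

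In mature cells 1 of 9 members was called (12 of 4206 genes, 0.285%, were called in all). Bcas1 stood at 678 and 323 CPM in motor cortex early 1 and late 1, and at 169 to 273 in the 5 striatal pools with enough cells. Both motor cortex values lay above the striatal ones, with a log2 difference of 1.46 (SE 0.353, edgeR adjusted p 0.039, 2 residual degrees of freedom). The call was lost without any 1 of 5 pools (log2 1.04 to 1.73, adjusted p 0.169 to 1.00), and with DESeq2, and both motor cortex pools sat in batches with no usable striatal pool. Enpp6, the other early gene, was on the other side, at a log2 difference of -1.23 (adjusted p 0.288).

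By training stage, 1 member was called once within the lineage. In striatal precursors Bcas1, 1 of 3 members tested, was lower in early than in control pools (20 of 10789 genes, 0.185%, were called). The controls stood at 193 and 440 CPM, the early pools at 194 and 299 and the late pools at 167 and 310, so the groups overlapped as measured. The fitted log2 difference, with barcode class in the model, was -0.78 (SE 0.185, edgeR adjusted p 0.048). Control 1 was class A and the early pools were not, so the fitted value leans on control 2, which shared a batch with early 1 (440 against 194 CPM). Without barcode class in the model the difference was -0.41 and not called, and leaving out control 2 (-0.54) or early 1 (-0.50) also ended the call. In striatal committed cells 0 of 8 members were called early against control (0.0974% of genes). There 5 had an unadjusted p under 0.05, namely Cldn11, Cnp, Mag, Mbp and Mobp, all lower in early pools with adjusted p of at least 0.399, beside 388 of all 6161 genes. The late comparisons called no member in striatal precursors (0.352% of genes against control, 0.297% against early) or committed cells (0.130% and 0.276%). In them Bcas1 had an unadjusted p under 0.05 against control, and Bcas1 and Cnp against early, in precursors; 3 members did so late against early in committed cells. Of all genes, 751 and 860 of 10789 in precursors and 481 of 6161 in committed cells had such a p in these comparisons. Mature striatal cells could be compared late against early over 5 pools with 1 residual degree of freedom, and no member was called (0.0300% of genes). Mag (log2 0.80) and Mal (log2 -1.38) had unadjusted p under 0.05 there, with 136 of 3336 genes.

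In motor cortex the stage comparisons called no member in precursors (0% of 12990 genes in each of the 3) or in committed cells (of 7630 genes, 0% early against control, 0% between the trained stages and 0.0262% late against control). Precursor Mbp stood at 26.7 and 34.1 CPM in controls, 85.7 and 35.1 in early pools and 124 and 26.8 in late pools. Early 1 and late 1 were thus the highest, late 2 lay between the controls and early 2 just above them. The early log2 difference of 1.38 had an edgeR adjusted p of 1.00. Mobp differed by 4.81 early against control and 3.71 late against control (unadjusted p under 0.05 for both, as for 519 and 502 of 12990 genes, adjusted p of 1.00 for the first); control pools held 0 and 0.48 CPM. The difference between regions in the stage effect was called for no member (0% of genes), with unadjusted p under 0.05 for 4 members and 790 of 12613 genes in precursors early against control. DESeq2 called no member in any stage comparison of the lineage classes. In simulated counts, edgeR late against control recovered 37.1% of changes of 1 log2 unit in motor cortex precursors and 6.3% in committed cells. For changes of 2 log2 units it recovered 86.6% and 64.1%. In striatum the shares at 1 log2 unit were 53.6% and 35.4%. A lack of calls by stage thus does not show that levels were equal.

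The hemispheres were compared within pools, contralateral against ipsilateral, with the pool as a block, so that batch and barcode class are shared. In motor cortex precursors Mbp stood at 144.8 CPM contralaterally and 44.9 ipsilaterally in early 1 (176 and 79 UMIs), and at 37.5 and 32.0 in early 2. It stood at 172.8 and 85.6 CPM in late 1 (243 and 150 UMIs) and 36.8 and 15.7 in late 2. The contralateral library was higher in 4 of 4 pools, with a log2 difference of 1.19 (SE 0.120, edgeR adjusted p 6.2e-19). Mobp was the other member called of 5 tested (6 of 11851 genes, 0.0506%, were called in all), at 1.82 (SE 0.329, adjusted p 1.3e-04). Its levels were 23.0 against 2.27, 1.59 against 1.03, 30.6 against 10.8 and 1.19 against 3.93 CPM, so that 3 of 4 pools were higher contralaterally. Bcas1 and Cnp, the 2 members that precursors hold most of, differed by 0.17 (adjusted p 0.919) and 0.07, and Cldn11 by 1.20 (adjusted p 0.911). Without early 1 the Mbp difference was 0.93 (adjusted p 2.5e-05) and over all pools left out in turn it was 0.93 to 1.32 and always called. Mobp was not called without early 1 (1.26, adjusted p 0.554) and had too few counts to be tested without late 1. Its call thus rests on early 1 and late 1. In early 2 and late 2 it did not exceed 3.93 CPM in a library. DESeq2 called neither (Mbp 1.09, Mobp 1.31, adjusted p 1.00), nor did edgeR with stage and barcode class in place of the pool block (1.14 and 1.72).

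In the striatum the difference pointed the other way. Precursor Mbp stood at 16.8 against 20.2, 20.4 against 32.9, 24.8 against 51.6 and 31.0 against 48.3 CPM, lower contralaterally in 4 of 4 pools, with a log2 difference of -0.64 (SE 0.256, edgeR unadjusted p 0.0147, adjusted p 1.00). None of 3 members tested was called there (0% of 9521 genes). The difference between the regions was called, at 1.83 (SE 0.291, edgeR adjusted p 6.1e-05, 0.00871% of 11485 genes called). Each pool's own log2 ratio averaged 1.02 ± 0.60 (SD, n = 4) in motor cortex and -0.64 ± 0.32 (n = 4) in striatum. The edgeR p-values use a spread estimated across genes and do not measure these SDs. An exact two-sided permutation test over the 8 pools gave p = 0.0286, the smallest p possible with this number. The comparison was chosen after the data were seen. Since the ratios of the 2 regions did not overlap, this p was fixed beforehand and adds no separate evidence. Leaving out 1 pool at a time, the difference of 1.66 ranged from 1.44 to 1.93, with exact p of 0.0286 or 0.0571. In untrained motor cortex Mbp stood at 35.7 CPM right and 7.60 left in control 1 (10 UMIs and 1 UMI) and at 41.6 right and 27.3 left in control 2, which was not tested. In committed cells no member was called between hemispheres in either region (0 of 7 tested in each, 0% of genes, none at an unadjusted p under 0.05, and none by DESeq2). Mbp there stood at 4598 against 4469, 1576 against 998, 5965 against 5040 and 3073 against 3254 CPM in motor cortex.

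The same libraries differed in their mature cells and in Mbp of other classes. Mature-like cells made up 19.4 per 1000 cells contralaterally and 1.31 ipsilaterally in motor cortex early 1, and 15.2 and 3.59 in late 1. They were scarce in early 2 (0.834 and 0) and late 2 (0.277 and 0.5). In striatum the side with more varied: 3.47 against 5.96, 2.21 against 2.47, 4.15 against 3.08 and 1.02 against 6.55 per 1000. Mbp was also higher contralaterally in motor cortex astrocytes, by 1.29 (SE 0.184, edgeR adjusted p 4.4e-04, higher in 4 of 4 pools, 0.0421% of genes called) and in GABAergic interneurons, by 0.85 (SE 0.139, adjusted p 0.0020, 4 of 4 pools, 0.0778%). Astrocytes stood at 74.6 against 37.8, 12.9 against 0, 218 against 86.5 and 9.08 against 6.17 CPM of Mbp. These rested on 14 and 16 UMIs in early 1, 2 and 0 in early 2, 361 and 105 in late 1, and 2 and 1 in late 2. Endothelial cells (2.58, SE 0.357, adjusted p 3.0e-04, 0.0196% of genes) and microglia (0.76, SE 0.145, adjusted p 0.044, 0.0624%) were called as well, but only early 1 and late 1 were higher contralaterally. Glutamatergic neurons (0.28, adjusted p 0.277, 0.142% of genes) and mural cells (0.99, adjusted p 0.141, 0.0142%) were not called. For astrocytes the difference between regions was 2.04 (SE 0.371, edgeR adjusted p 7.3e-04, 0.0648%), and the exact permutation p over pools was 0.0857. That difference was not called for Mbp in GABAergic interneurons (0.72, adjusted p 0.804, 0.00759% of genes called), endothelial cells (2.39), microglia (0.80) or mural cells (1.19; adjusted p 1.00 and 0% of genes for these), with unadjusted p under 0.05 in each of the 4. The counts of all genes with such a p are not given here for these classes. In striatal interneurons Mbp was higher contralaterally in 3 of 4 pools. In precursors, 7 mature markers that are not members (Opalin, Ermn, Aspa, Ugt8a, Gjb1, Hapln2 and Trf) summed to 93.9 to 216 CPM in contralateral and 91.3 to 219 CPM in ipsilateral motor cortex libraries, with 0 to 4 of the 7 at 0 in a library. Ugt8a (150 CPM) made up most of this sum in motor cortex, and Opalin stood at 0.64 and Aspa at 0.08. The 851 Mbp UMIs of motor cortex precursors lay in 436 cells, of which 59 held 50% of them. The part of free RNA in these differences was not tested.

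**Figure D3:**
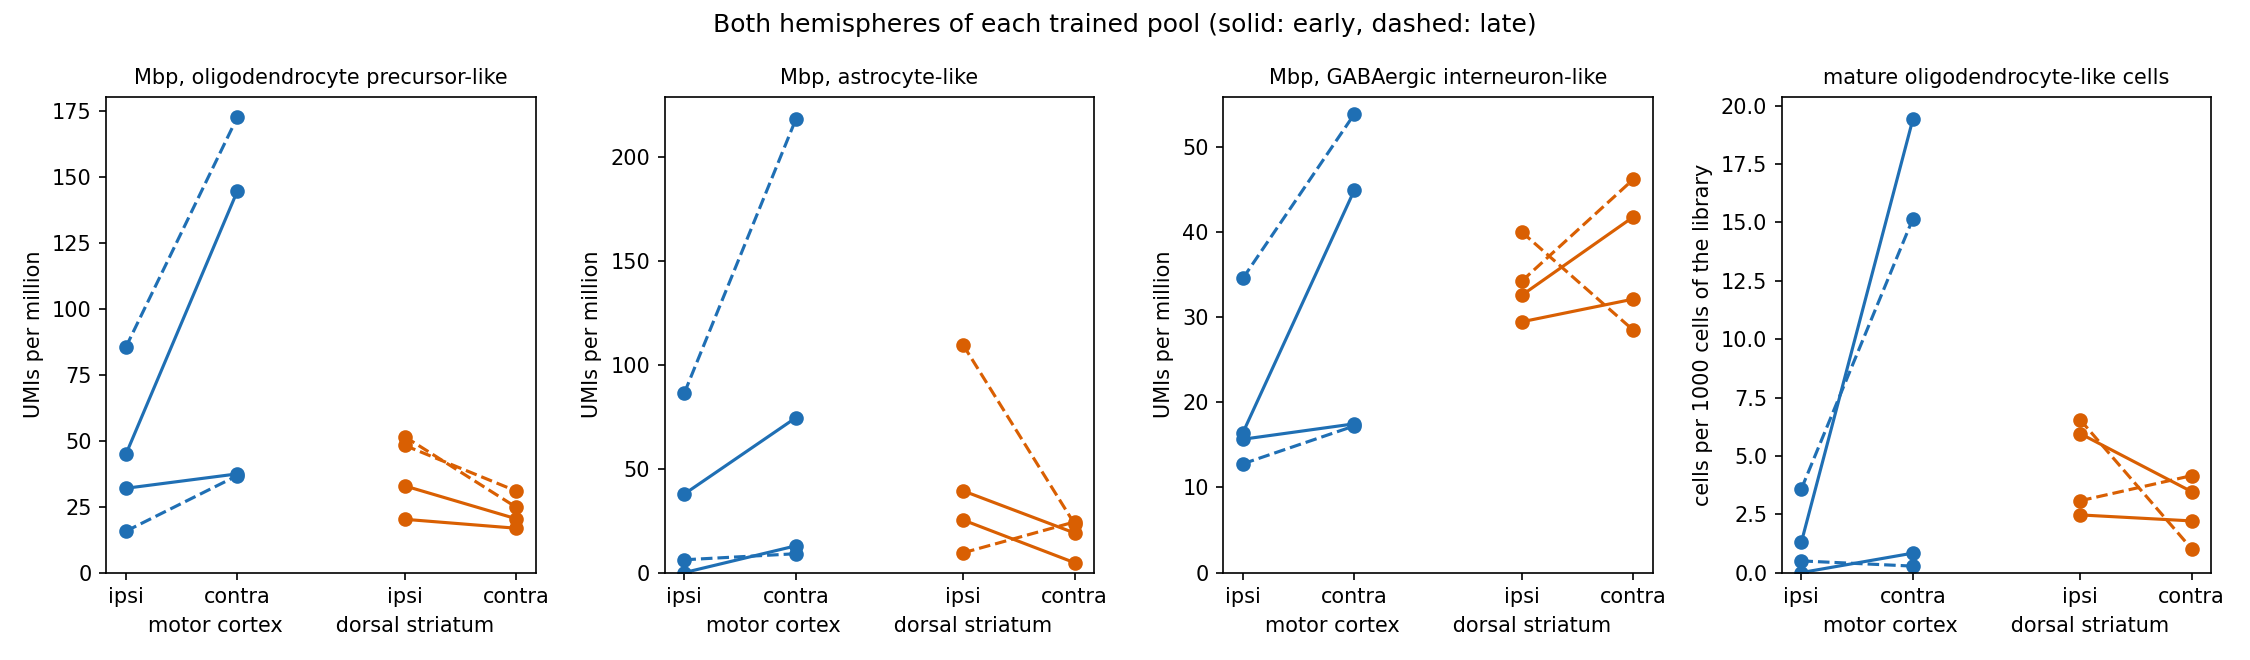
Lines join the ipsilateral and contralateral libraries of each trained pool (blue motor cortex, orange dorsal striatum, solid early, dashed late) for Mbp (CPM) in precursor-like cells, astrocytes and GABAergic interneurons, and for mature-like cells per 1000 cells. All 4 blue lines rise and all 4 orange lines fall for precursor Mbp, while in the last panel 2 motor cortex pools rise steeply, to 19.4 and 15.2, and the other two stay near 0.

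Outside the lineage, Mbp was found in every class, while most other members were near 0. Over the 10 other named classes of each region, Mbp stood at 26.4 to 96.4 CPM in motor cortex (median 72.7) and 23.4 to 82.6 in striatum (median 34.4). Mobp stood at 3.80 to 14.95 and 2.66 to 10.7 CPM and Mog did not exceed 1.10. Precursor Mbp, at 68.3 CPM in motor cortex and 33.6 in striatum, lay within these ranges, as did precursor Mobp at 8.19 and 5.77. By the same measure, Bcas1 (349 and 282 CPM) and Cnp (229 and 174) in precursors lay above every class outside the lineage (at most 50.7 and 109). The ratio of Mbp to Mobp UMIs was 1.84 in mature cells of the motor cortex and 1.40 in the striatum, 243 and 114 in committed cells, and 8.34 and 5.83 in precursors. Other classes with at least 10 UMIs of Mobp lay between 2.77 and 9.41, apart from spiny projection neurons of the striatum at 31.0. Those neurons held the highest Mbp of the striatum outside the lineage, 82.6 CPM, with a UMI in 28.6% of 21002 cells, and the lowest Mobp, 2.66 CPM. Thinned to 1000 UMIs, 7.60% of spiny neurons had a UMI of Mbp, against 3.31% of GABAergic interneurons of the striatum (17.98% unthinned) and 3.41% of microglia. Median depths were 4363.5, 5131 and 1825 UMIs. In the motor cortex 31.7% of glutamatergic neurons had a UMI of Mbp (62.8 CPM), and 5.88% after thinning, against 4.62% of microglia there.

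In the striatum, Mal, Cnp and Mag were each highest outside the lineage in a different class. Endothelial cells held 644 CPM of Mal in motor cortex and 665 in striatum, with a UMI in 56.4% and 57.3% of cells, against at most 18.3 CPM in the remaining classes outside the lineage. Mural cells, at a like depth (median 1641 and 1635 UMIs against 1609 and 1551), had one in 0.255% and 0.0871% of cells. The 2792 UMIs in motor cortex lay in 1163 of 2061 cells and the 1859 in striatum in 800 of 1397. Cnp stood at 109 CPM in ependymal cells of the striatum, at 82.5 in the 113 lymphocytes of the motor cortex and at 78.4 and 63.5 in astrocytes of motor cortex and striatum. The lymphocyte value rests on 0 to 5 UMIs a pool, and only early 2 and late 1 held at least 20 lymphocytes. Mag stood highest in microglia, at 17.4 and 12.6 CPM, where 361 UMIs lay in 347 cells and 127 in 124. A single fibroblast of the striatum carried 35 UMIs of Bcas1, which set the 50.7 CPM of its class.

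**Figure D4:**
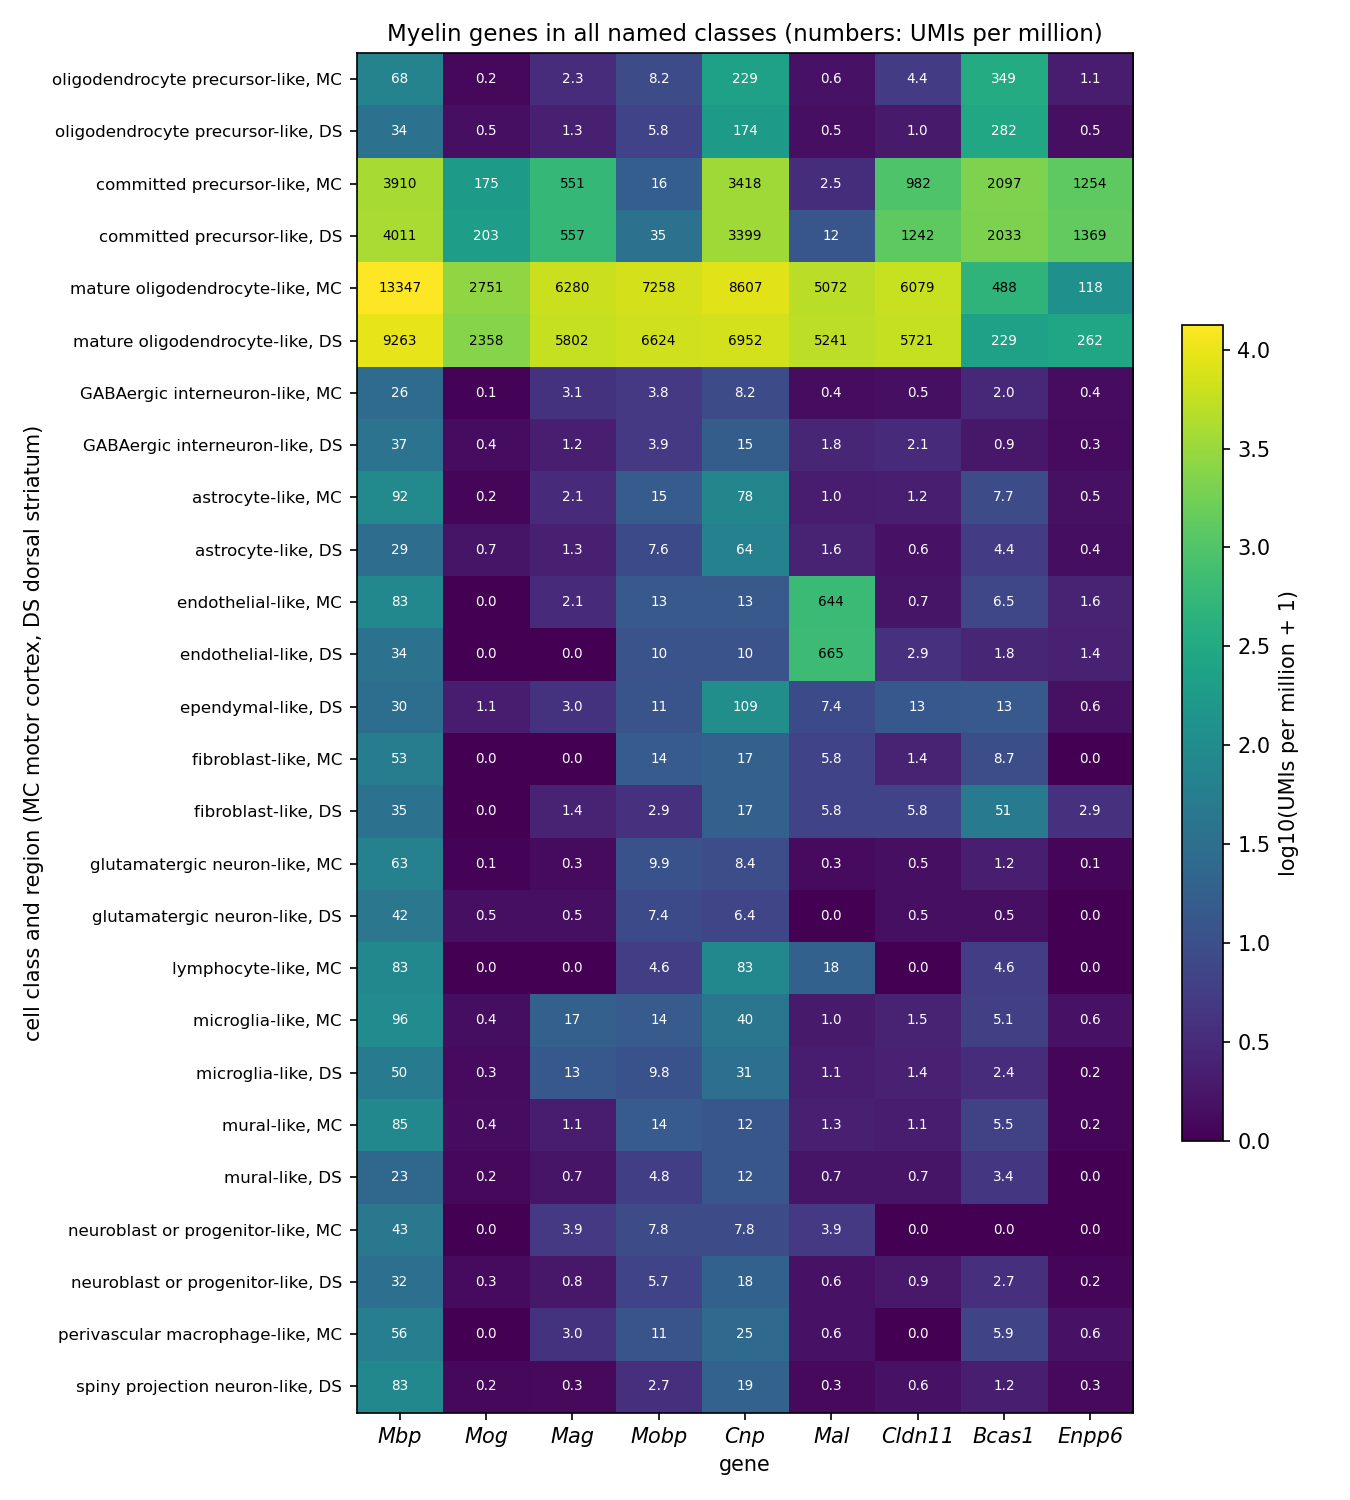
The heat map gives the level of each gene (CPM, printed in each cell; colour on a log10 scale) in every named class of both regions. The 3 lineage classes fill the top rows, endothelial rows stand out for Mal (644 and 665), and the Mbp column is above 20 in all rows.

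Regional tests outside the lineage called 2 members. GABAergic interneurons held less Cnp in motor cortex (5.42, 6.83, 7.09, 7.52, 9.40 and 10.2 CPM) than in striatum (8.15, 11.7, 13.02, 17.4, 20.5 and 20.7 CPM). The ranges overlapped only through striatal early 1, and the log2 difference was -0.98 (SE 0.222, edgeR adjusted p 0.0025, 31.1% of genes called in this class). Within the 2 batches that hold both regions, it stood at 6.83 against 17.4 and 5.42 against 20.5 CPM. Mbp was higher by 0.88 in motor cortex glutamatergic neurons (SE 0.267, edgeR adjusted p 0.0497, 7.62% of genes called, median of all genes 0.11), of which the striatum held 224 cells. That call was lost in 4 of 10 fits without 1 pool (0.48 to 1.08), namely those without striatal control 2, early 1, early 2 or late 1, and in 6 of 8 other settings, DESeq2 among them (0.78, adjusted p 0.0801). Within the 1 batch that gives a value it stood at 63.9 against 47.2 CPM, the latter from 16 UMIs. No member was called in astrocytes (29.6% of genes called), neuroblasts or progenitors (21.9%), microglia (1.76%), mural cells (0.62%) or endothelial cells (0.378%). An unadjusted p under 0.05 was found for 1 member in each of these but the endothelial cells, where Mal, their own member, differed by -0.09 (SE 0.143, adjusted p 0.982). The counts of all genes with an unadjusted p under 0.05 are not given here for these classes, so this does not set the members apart. No member had enough counts in fibroblasts (1.86%), and DESeq2 called 3 pairs of member and class over the regional tests outside the lineage. By stage, Mbp was called in striatal endothelial cells, late against control (log2 2.96, SE 0.469, edgeR adjusted p 0.0084, 0.0929% of genes) and late against early (3.34, SE 0.496, adjusted p 0.010, 0.0465%). These rested on 95 UMIs in 32 of 1397 cells, of which 3 cells held 50%. They were lost without barcode class and with DESeq2. Leaving out control 2, early 1, late 1 or late 2 ended the first, and early 1, late 1 or late 2 the second.

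The 9 genes were also counted in barcodes that failed the cell filter. In 10 of 12 pools the 9 genes together stood at 187 to 684 CPM there, in motor cortex late 1 at 831 and in early 1 at 5670. The early 1 value came from its contralateral library, at 10697 CPM against 850 ipsilaterally. In that library 61 barcodes with at least 1% of their UMIs from the members held 6949 of the 7062 member UMIs, and 23 of them were over the mitochondrial limit. Its remaining failing barcodes stood at 187 CPM, within the 67 to 320 CPM of the rest across libraries. The ratio of Mbp to Mobp in failing barcodes was 5.29 in motor cortex and 4.42 in striatum, above that of mature cells. Mature cells supplied 0.0657% and 0.0395% of all UMIs as member UMIs in motor cortex early 1 and late 1, 0.00161% to 0.00873% in the other motor cortex pools and 0.0127% to 0.0284% in striatal pools.

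Across the 12 pools, the level of the 9 genes in a class outside the lineage was set against this share, both on a log2 scale (level plus 1), in a family of 11 classes. In GABAergic interneurons Pearson's r was 0.80 (permutation p 0.0022, adjusted 0.024) and Spearman's rho 0.76 (permutation p 0.0060, adjusted 0.052). Without motor cortex control 1 and late 2, the 2 pools farthest from the median share, r was 0.61. Within motor cortex r was 0.87 (exact permutation p 0.0278, adjusted 0.103), within striatum 0.36 (exact p 0.485) and within barcode class B 0.75 (n = 8, permutation p 0.0318, adjusted 0.127). Class A held too few pools. Whether r differed between the regions was not tested. Astrocytes (r 0.61, permutation p adjusted 0.112), microglia (r 0.63, adjusted 0.112) and the remaining classes did not pass. With cells thinned to 1000 UMIs no class passed, and with Mbp alone in place of the 9 genes 4 of the 11 did.

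**Figure D5:**
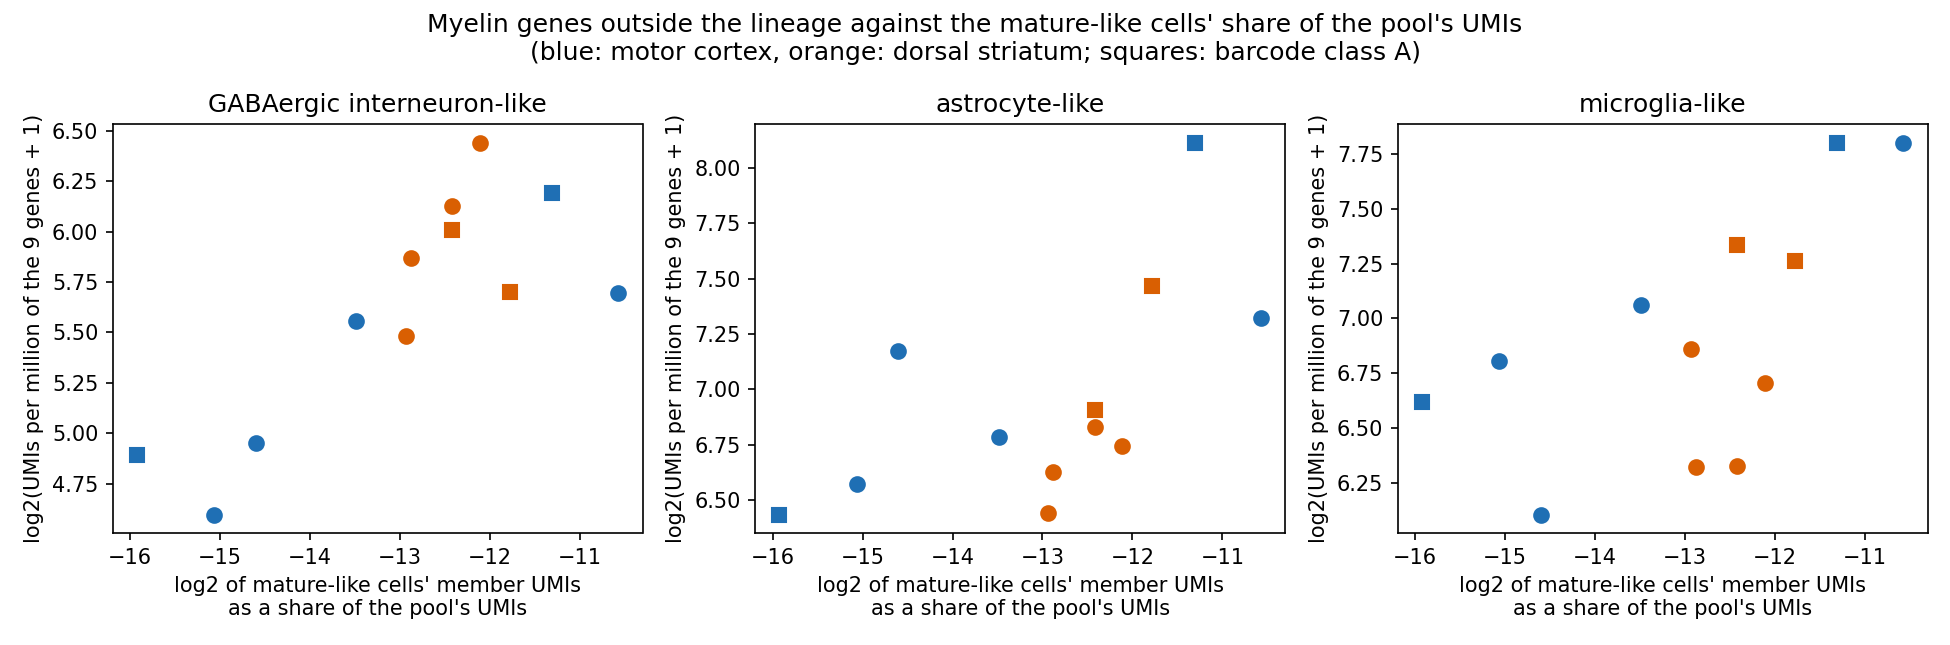
Each point is a pool (blue motor cortex, orange dorsal striatum, squares barcode class A): the x axis gives the log2 of the mature-like cells' member UMIs as a share of the pool's UMIs, the y axis the log2 of the level of the 9 genes (CPM plus 1) in GABAergic interneurons, astrocytes and microglia. The 2 motor cortex pools at 0.0657% and 0.0395% lie to the right of all others.

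For each member the genes most like it were ranked by Pearson's r of log CPM over 143 sums of pool and class (15 classes, 20054 genes), as a description. The sums share libraries and the few lineage classes dominate the ranks. Mog and Cldn11 were each other's closest gene (r 0.963), and Mag was closest to Mog (0.932). Enpp6 was closest to Cldn11 (0.921) and the non-coding gene 9630013A20Rik (0.915). Bcas1 was closest to Gjc3, a glial connexin (0.933), and to Gpr17 (0.923), and Cnp to Sirt2 (0.886). Mbp had no gene above 0.854 (Cldn11), and Mobp (Tmem125, 0.833) and Mal (Sh3tc2, 0.815) were the members with the loosest company.

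Oligodendrocyte transcription factors and other myelin genes, from lists of 17 and 28 genes, were read from the same fits. Between regions, 1 of 17 factors was called in precursors (median log2 difference -0.01), against 0.622% of all genes. It was Nkx6-2, a homeodomain factor of the lineage, which stood at 5.16 to 16.0 CPM in striatal and 0 to 0.95 in motor cortex pools, a difference of -4.09 (SE 0.464, edgeR adjusted p 6.7e-06) with no overlap between the regions. In the motor cortex hemisphere comparison of precursors, none of 19 myelin-list genes (median 0.07) or 16 factors was called, against 0.0506% of all genes. At that share lists of this size need not hold a call, so their lack of calls is not a contrast to the members. The 2 of 5 members called there were Mbp and Mobp, neither of them called by DESeq2.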

How the data were processed

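Single-cell 3' libraries (10x Genomics, kit v2 or v3, per the labels' protocols) came from papain-dissociated tissue pooled by hemisphere from 2 mice. The authors deposited raw counts of UMIs per gene and barcode, and the file headers give the software version as 3.0.2. The submitters' processing notes name Cell Ranger 3.1.0, GRCm38 and mm10. Cell calling and annotation were not given in the sources used here.

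Of 127901 barcodes, 103715 passed limits of 500 genes, 1000 UMIs and 20% of UMIs from mitochondrial genes, and the 4088 with the highest Scrublet scores (0.8% per 1000 cells of a library) were removed as presumed doublets. Cells were clustered per region without the 9 genes (2000 variable genes, 40 components, 20 neighbours, Leiden resolution 1.5; scanpy 1.11.5, leidenalg 0.10.2, Python 3.11.15). Naming rules were tuned after clusters were seen, so class sizes depend on rebuilt names. The members and gene lists were chosen with earlier results of these data known. Named genes were the 9 members, the 3 genes most like each, and called list genes, at most 5 a comparison.

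UMIs were summed per pool and class with at least 20 cells. Region and stage were tested over pools with barcode class as a term, hemispheres over libraries with the pool as a block, in edgeR 4.0.16 (limma 3.58.1, R 4.3.3; TMM, filterByExpr, quasi-likelihood, Benjamini-Hochberg over all genes within a comparison, 108 main comparisons), checked on simulated data. DESeq2 1.42.0, other filters and scalings, and fits without each pool were alternatives. A pool left alone in its group was assumed to vary like the others. Comparisons within a region share pools. Mice were pooled, so p-values speak of these pools and not of single mice. The edgeR p-values use a spread estimated across genes, and can be far below what a gene's own spread between pools would give. Correlations used 100000 resamples, or all orders within 6 pools (scipy 1.17.1). Replicate numbers followed accession order and pair nothing. Figures used matplotlib 3.10.9. Results on 1 further gene are not reported here.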

Additional observations from a re-analysis of the deposited data

Results flagged for a closer look

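The contralateral against ipsilateral change of Mbp differed between motor cortex and striatum in precursor-like cells (log2 difference of differences 1.83, edgeR adjusted p 6.1e-05, higher in 4 of 4 motor cortex pools and lower in 4 of 4 striatal pools) and in astrocytes (2.04, edgeR adjusted p 7.3e-04). For precursor-like cells the exact permutation p was 0.0286 over all pools, and 0.0286 or 0.0571 with 1 pool left out. Within motor cortex, neither DESeq2 nor edgeR without the pool block called the hemisphere difference. The edgeR test between regions was run in 1 setting only and was chosen after the data were seen. For astrocytes the exact permutation p over pools was 0.0857, striatal late 2 went the other way from the other striatal pools, and motor cortex early 2 and late 2 held at most 2 UMIs a library. Barcodes that failed the cell filter, used in no comparison, held the 9 genes at 5670 CPM in motor cortex early 1 and 831 CPM in motor cortex late 1, above both motor cortex control pools (187 and 684 CPM).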

How the results depend on the processing

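Counts of members called in the lineage classes moved with the processing as follows. The shares of all genes called and the numbers of members tested are not given here for each setting. The counts below, in and outside the lineage, thus cannot be read as particular to the members. Between regions in precursors, 0 became 1 with no filter on low counts, and stayed 0 to 0 over fits without 1 pool. In committed cells 0 became 2 when classes were gated on marker UMIs (0 to 1 without 1 pool). In mature cells 1 became 0 with DESeq2, with its size factors, with a minimum of 10 cells, without barcode class and with gates (0 to 0 without 1 pool). In motor cortex, early against control went from 0 to 2 with no filter (0 to 2 without 1 pool), late against control from 0 to 1 with no filter or gates (0 to 2) and late against early from 0 to 1 with gates (0 to 1). The motor cortex hemisphere count of 2 became 0 with DESeq2 or with stage and barcode class in place of the pool block, 4 with gates and 1 with a stricter cell filter, under which Mobp (2.27) was not called (1 to 2 without 1 pool). In striatum, the early count of 1 became 0 with DESeq2, without barcode class, with doublets kept, with gates and with unnamed sub-clusters kept by their markers (0 to 1). Late against control stayed at 0 to 0 and late against early at 0 to 1 without 1 pool. The striatal hemisphere count of 0 became 1 with doublets kept, 1 with gates and 3 with unnamed sub-clusters kept (0 to 0), and region by stage ranged from 0 to 1. Outside the lineage, the stage count of 2 became 0 with DESeq2 or without barcode class, 15 with no filter and 1 with doublets kept or stricter cells (1 to 12 without 1 pool). The region count of 2 became 1 with a minimum of 10 or 50 cells or without barcode class and 9 with no filter (1 to 3); Mbp in glutamatergic neurons was called in 2 of 8 settings (0.66 to 1.10). The correlation count of 1 class became 0 with thinned cells, 4 with the share of mature cells as the x axis and 4 with Mbp alone. The number of members highest in mature cells was 7 of 9, and 6 of 7 with gates, where Mog and Enpp6 define classes and were left out; 27 of 27 levels moved by less than 1 SD with a stricter filter or doublets kept, against 11 of 27 beyond it with gates and 8 of 27 with unnamed sub-clusters kept. The causes were not tested. The hemisphere tests outside the precursors, the test between regions, the pools' own ratios, the unnamed sub-clusters kept and Mbp alone were chosen after seeing the data. By replicate number, no paired analysis was possible because the numbers follow accession order; hemispheres were paired by pool, and no fit with the labels' batch as a block was run. Depth limits the low members: Mog, Mal, Mag and Enpp6 in precursors and most members outside the lineage had too few UMIs to be tested.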
